A study of Mus musculus with 2 samples.

Results

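The cells described here were macrophages of the mouse lung at stage E18.5, shortly before birth, picked out of a library of sorted lung cells by their transcripts. A cell counted as a macrophage when it held a UMI of at least 4 of the 6 leukocyte and macrophage genes Plek, Cybb, Tyrobp, Laptm5, Fcer1g and Mpeg1, and when S100a8 and S100a9, the main neutrophil transcripts, made up less than 1% of its UMIs. A UMI (unique molecular identifier) is 1 counted transcript molecule. By this rule 1865 of the 12027 filtered E18.5 cells were macrophages, a share of 15.5% (95% exact binomial interval 14.9 to 16.2%), out of 26113 filtered cells in the whole series. The same rule found 748 macrophages among the 14086 filtered cells of the P10 library. Because measured counts of these cells chose the members, the values set against the remaining E18.5 cells (the rest) are a description and carry no test. The 198 macrophages with exactly 4 of the 6 genes, just inside the rule, held a mean of 13.1 UMIs of these genes, and the 513 cells with 3 of them, just outside it, 4.27. A further 40 cells with at least 4 of the genes were left out by the limit on S100a8 and S100a9.

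The series traced cells that express Cdh16, a cadherin. E18.5 lungs and lungs at postnatal day 10 (P10) gave 1 library each, and both groups carried the same alleles, a tamoxifen-inducible Cre recombinase at Cdh16 (Cdh16CreERT2) and a floxed tdTomato reporter, with Cre driven from the Cdh16 locus. The tissue label of the P10 library reads embryonic lung. The design text describes the reporter as R26-tdTomato with 1 floxed copy, the genotype label as flox/flox. Pregnant females of both groups received tamoxifen from E12.5 on, by injection at 0.1 mg/kg or in food at 0.4 g/kg, and red cells were sorted within the population stained for CD326, the epithelial adhesion molecule encoded by Epcam. The number of embryos or pups behind each library is not given, and with 1 library per age there was no replicate check: the intervals below cover counting error only. The filtered cells had medians of 8959 UMIs at E18.5 and 10250.5 UMIs at P10. The 2 libraries shared 59 barcodes, and 11 of the E18.5 macrophages had a barcode that a filtered P10 cell also had.

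Macrophages are phagocytes that engulf particles, sense microbes and signal to other cells through cytokines. Fetal lungs hold macrophages of yolk sac and fetal liver origin. Around birth, fetal monocytes that receive the cytokine GM-CSF, mainly from alveolar epithelium, become alveolar macrophages, which live in the airspace, switch on the transcription factor PPARγ and clear surfactant lipids. A separate interstitial kind expresses the complement genes C1qa, C1qb and C1qc. The alveolar epithelium itself consists of flat AT1 cells for gas exchange and of AT2 cells that make surfactant.

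Transcripts of phagocytic, inflammatory and alveolar-macrophage genes set the macrophages apart from the remaining cells. Among the 8912 genes with at least 10 CPM (counts per 1000000 UMIs) in either sum of cells, 682 were at least 2-fold higher in the macrophages (7.65%) and 150 were at least 2-fold lower (1.68%). Giving every cell the same weight, by averaging each cell's CPM, made these counts 901 and 413. A gene that reached 10 CPM only in the macrophages is higher there by this minimum itself. The same holds for the counts over gene lists below, which are a description. Cybb, the membrane-bound catalytic subunit of the phagocyte NADPH oxidase, led the ranking by ratio (with 1 CPM added to both sums). It had 385 CPM in macrophages and 11.5 CPM in the remaining cells, a 33.5-fold ratio (95% interval 31.6 to 35.6). Cybb is a gene of the rule, as are Laptm5, Plek and Tyrobp among the 25 leading genes, so the choice of cells raised their ratios. Cybb lies on chromosome X at 9435252 to 9487771 of GRCm38, minus strand. The plot of the 25 leading genes shows that every one of them stood between 55.0 and 781 CPM in the macrophages, against 1.68 to 30.1 CPM in the remaining cells.

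**Figure D1:**
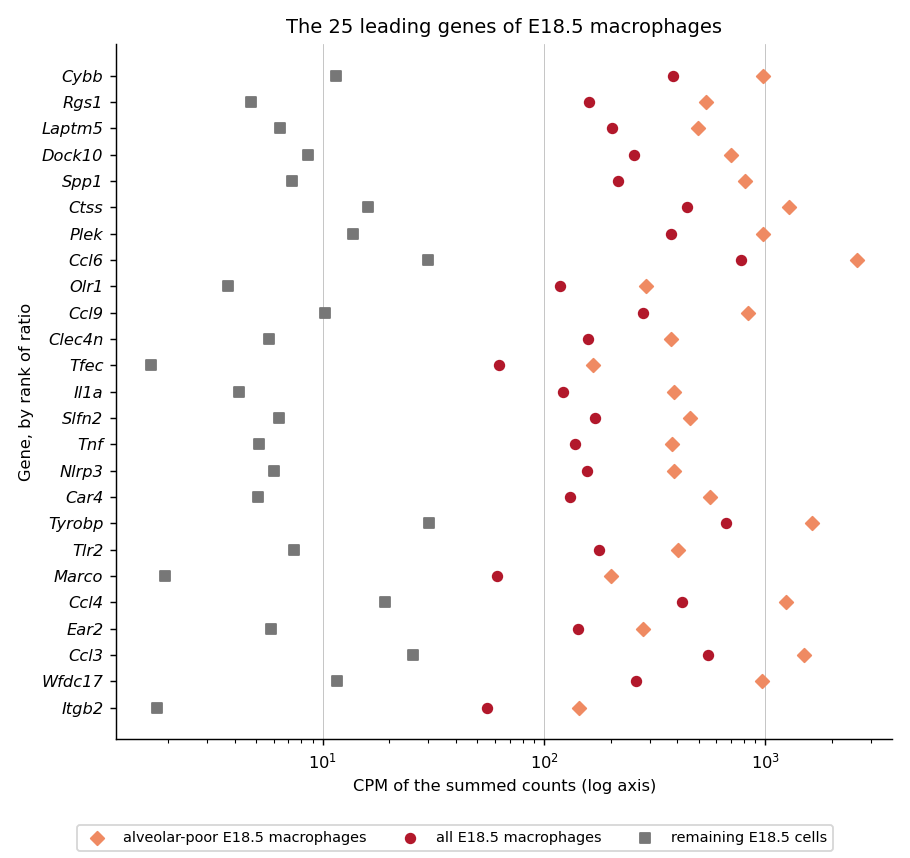
Level in CPM (log axis) of the 25 leading genes, in order of rank, in alveolar-poor E18.5 macrophages (diamonds), all E18.5 macrophages (circles) and the remaining E18.5 cells (squares). Each value is 1 sum over cells of 1 library, so there is no error between libraries; Itgb2 is lowest in all macrophages at 55.0 CPM and Ccl6 highest at 781 CPM.

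The rule's own markers and the 2 further markers given for these cells had the values that the choice of cells fixes. Tyrobp, an adaptor that carries ITAM signals from activating receptors, stood at 665 CPM in macrophages and 30.1 CPM in the remaining cells. Fcer1g, the common gamma chain of Fc receptors, stood at 1035 CPM in macrophages and 53.6 CPM in the rest, and Mpeg1, a pore-forming protein of phagosomes, at 179 CPM in macrophages and 8.30 CPM in the rest. Plek, a protein kinase C substrate of leukocytes, had 376 CPM in macrophages and 13.8 CPM in the rest, and Laptm5, a lysosomal membrane protein of blood cells, 204 CPM in macrophages and 6.38 CPM in the rest. Ear2, an eosinophil-associated ribonuclease that mouse alveolar macrophages also make, was not part of the rule and had 142 CPM in macrophages and 5.86 CPM in the remaining cells, a 24.3-fold ratio (22.3 to 26.4). Olr1, a scavenger receptor for oxidized lipoprotein, reached 31.7-fold (28.5 to 35.2), at 119 CPM in macrophages and 3.75 CPM in the rest.

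Single-cell detection at matched depth was also higher in macrophages for the genes given here, though not in the same order. With every cell thinned to 2000 UMIs, Spi1 was seen in 30.6% of macrophages and 1.46% of the rest, and Csf1r in 9.85% of macrophages and 0.679% of the rest. Without thinning the shares for Spi1 were 80.1% of macrophages and 5.99% of the rest, at median depths of 15042 UMIs in macrophages and 8166.5 UMIs in the rest. AT2-rule cells (at least 5% of UMIs in AT2 markers, under 0.7% in AT1 markers and at most 1 of the 6 macrophage genes), an epithelial type that should lack Spi1, held it in 5.64% unthinned at a median of 8919.5 UMIs. The part of free RNA in these shares was not tested. C1qa was seen in 6.46% of thinned macrophages and 0.934% of the thinned rest, and Car4 in 9.96% of macrophages and 1.13% of the rest. Tyrobp was seen in 70.6% of thinned macrophages and 4.76% of the thinned rest, but its detection helped to choose the cells.

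Markers of other lineages bear on the label. Each of the 10 pan-macrophage markers was at least 2-fold higher in the macrophages. Spi1, the PU.1 transcription factor that directs myeloid development, had 139 CPM in macrophages and 7.08 CPM in the rest, and Adgre1, the F4/80 antigen, 32.1 CPM in macrophages and 1.15 CPM in the rest. Csf1r, the receptor for the growth factor M-CSF, had 37.5 CPM in macrophages and 3.59 CPM in the rest. Spi1, Adgre1 and Csf1r were under 10 CPM in the rest, so they were measured only through the macrophages. None of the 9 dendritic cell markers reached 10 CPM in either sum. Of the 12 lymphoid markers 1 reached it, Cd79b, with 11.2 CPM in macrophages and 10.7 CPM in the remaining cells, and Cd3e was at 0 in macrophages. Of the 14 monocyte markers 11 were measured and 10 were higher, among them Ccr2, the receptor that recruits monocytes, at 55.6 CPM in macrophages and 1.99 CPM in the rest. The chosen cells thus also included monocytes by these markers, as described with the sub-clusters.

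Most listed signals were higher in macrophages. Among chemokines and cytokines, 16 of 21 measured members were at least 2-fold higher and none was lower. Their median log2 ratio was 4.10, against 0.00 over all genes measured. Cxcl2, a chemokine that attracts neutrophils, had 3359.6 CPM in macrophages and 199.9 CPM in the remaining cells. Ccl6 and Ccl9, chemokines of mouse myeloid cells, had ratios of 26.1 and 27.3. Ccl3 and Ccl4, which attract lymphocytes and monocytes, stood at 554 and 421 CPM in macrophages, against 25.6 and 19.2 CPM in the remaining cells. The inflammatory cytokines followed the same pattern. Tnf had 139 CPM in macrophages and 5.13 CPM in the rest, Il1a 122 CPM in macrophages and 4.20 CPM in the rest and Il1b 446 CPM in macrophages and 25.1 CPM in the rest. Il1rn, the natural antagonist of interleukin 1, was 24.8-fold higher (22.0 to 27.9). Spp1, the secreted matrix protein osteopontin, had 216 CPM in macrophages and 7.23 CPM in the remaining cells. Areg and Hbegf, growth factors of the EGF family, did not pass 2-fold, with ratios of 0.650 and 1.04.

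Receptor and signalling lists differed in how many of their genes were higher. All 16 measured members of the Fc receptor and ITAM signalling list passed 2-fold, including Fcgr3 (an activating receptor for IgG) at 69.6 CPM in macrophages and 3.34 CPM in the rest, Clec4n (the C-type lectin Dectin-2) at 159 CPM in macrophages and 5.70 CPM in the rest and Syk (the kinase that ITAMs recruit) at 106 CPM in macrophages and 5.57 CPM in the rest. All 6 NADPH oxidase genes passed as well. Its other membrane subunit, Cyba, reached 692 CPM in macrophages and 208 CPM in the rest. Of 9 measured sensors of microbial products 7 passed. Tlr2, which senses bacterial lipoproteins, was 23.9-fold higher, and Nlrp3, a core inflammasome sensor, 26.1-fold. All 11 measured genes of leukocyte adhesion and cytoskeleton passed, with Itgb2, the common beta chain of leukocyte integrins, at 55.0 CPM in macrophages and 1.79 CPM in the rest.

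Growth factor receptors differed in their ratios. Csf2rb, the signalling chain of the GM-CSF receptor, was 21.2-fold higher (19.2 to 23.5), and Csf2ra, its ligand-binding chain, 3.27-fold (3.01 to 3.56). Csf2, which encodes GM-CSF itself, was low in both, at 6.56 CPM in macrophages and 7.66 CPM in the remaining cells. The transforming growth factor β receptors Tgfbr1 and Tgfbr2 did not pass 2-fold, with ratios of 1.39 and 1.07. Il34, an alternative ligand of the M-CSF receptor, had 10.3 CPM in macrophages and 16.7 CPM in the rest. Of 15 measured receptors in this list 9 were higher and none lower.

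Genes of alveolar macrophages were higher in 13 of 14 measured cases, and genes of C1q-type macrophages in 8 of 11. Pparg had 44.2 CPM in macrophages and 7.59 CPM in the rest, Marco, a scavenger receptor for unopsonized particles, 61.1 CPM in macrophages and 1.94 CPM in the rest, and Car4, a membrane carbonic anhydrase, 130.5 CPM in macrophages and 5.12 CPM in the rest. Siglecf, a surface lectin used to identify mature alveolar macrophages, was under the 10 CPM minimum with 1.29 CPM in macrophages and 0.0583 CPM in the remaining cells. Fabp5, a lipid carrier that AT2 cells also express, was the member that did not pass, at 1739 CPM in macrophages and 2024 CPM in the rest. The complement subunits C1qa, C1qb and C1qc stood at 91.0, 80.4 and 67.0 CPM in macrophages, against 5.72, 4.72 and 3.41 CPM in the remaining cells. Cbr2, a carbonyl reductase that airway club cells also make, was the C1q-type list's lower member, at 186 CPM in macrophages and 420.3 CPM in the rest.

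Housekeeping programmes of the phagocyte were higher in part. Of 18 measured lysosomal genes 7 were higher and none lower, with Ctss, a cathepsin of antigen-presenting cells, at 445 CPM in macrophages and 16.1 CPM in the rest and Ctsd at 550.1 CPM in macrophages and 129 CPM in the rest. Ctsh, a cathepsin that processes surfactant protein, had a ratio of 0.663, and Npc2, a lysosomal cholesterol carrier, one of 0.660. Of 15 measured lipid-handling genes 8 were higher, among them Abcg1, a cholesterol exporter, at 13.9-fold, and Lpl, lipoprotein lipase, at 3.03-fold. Fth1, the heavy chain of the iron store ferritin, took 12865 CPM in macrophages and 3771 CPM in the remaining cells. No measured gene of the immediate early and stress list (0 of 13) or of the hypoxia and glycolysis list (0 of 14) passed 2-fold in either direction. Among transcription factors 13 of 20 were higher. Tfec, a factor of the MITF family in myeloid cells, had the highest ratio of the 25 leading genes, at 37.3-fold (32.0 to 43.8), and Cebpb was 2.90-fold higher.

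Spi1 was among the higher genes, and its product binds purine-rich sites with a GGAA core, so the stretches before the start sites of leading genes were searched for the letters GAGGAAG on both strands (CTTCCTC on the other strand). The RefSeq promoter table for GRCm38.p6 held 20 of the 25 leading genes. Rgs1, Clec4n, Tyrobp, Ccl4 and Itgb2 had no entry. In the 250 bases before the start, 7 of the 20 held a match, a share of 35%, against 13.2% of 7116 measured genes with an entry and 12.0% of all 27025 genes in the table. The genes with a match were Laptm5, Spp1, Il1a, Tnf, Nlrp3, Marco and Wfdc17. A match is a description of these letters and does not show binding. The leading genes were ranked in these same data and include genes of the rule, with Laptm5 among the matches. For a gene with several starts, the start with the most matches was counted. The difference between the shares was not tested. The 150 bases before the start are printed for the 4 of them whose match lay in that stretch and whose stretch lay outside the annotated gene, 5′ to 3′ on the gene's strand, with matches in capitals. Spp1 lies on chromosome 5 (104434961 to 104435110, plus strand), Il1a on chromosome 2 (129309973 to 129310122, minus strand), Tnf on chromosome 17 (35202008 to 35202157, minus strand) and Marco on chromosome 1 (120505025 to 120505174, minus strand).
Spp1: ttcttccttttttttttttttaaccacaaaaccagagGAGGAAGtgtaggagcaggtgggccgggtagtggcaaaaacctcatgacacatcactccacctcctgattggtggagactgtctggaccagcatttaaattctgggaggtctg
Il1a: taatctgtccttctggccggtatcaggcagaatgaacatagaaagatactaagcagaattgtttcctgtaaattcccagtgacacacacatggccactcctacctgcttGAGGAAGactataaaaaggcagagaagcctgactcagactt
Tnf: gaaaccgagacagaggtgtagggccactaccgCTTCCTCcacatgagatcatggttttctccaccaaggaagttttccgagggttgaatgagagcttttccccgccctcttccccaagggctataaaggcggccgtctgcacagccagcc
Marco: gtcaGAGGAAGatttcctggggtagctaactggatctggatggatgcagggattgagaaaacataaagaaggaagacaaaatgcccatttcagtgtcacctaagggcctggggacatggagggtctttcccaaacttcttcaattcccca
The matches began 113, 41, 118 and 146 bases before the start of Spp1, Il1a, Tnf and Marco. Spp1 and Il1a are described above, and Marco and Tnf in the lists of alveolar-macrophage genes and of cytokines.

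Lower genes belonged to airway and other cells. Apart from S100a9, which the rule limits and which had 27.9 CPM in macrophages and 139 CPM in the remaining cells, the 10 lowest named genes included 5 of ciliated airway cells: Ccdc153, Tmem212, Cfap299, Tppp3 and Dynlrb2. Ccdc153, a gene of motile cilia, had 13.2 CPM in macrophages against 51.2 CPM in the remaining cells, and Tmem212 21.3 CPM in macrophages and 69.1 CPM in the rest. The club cell secretoglobins Scgb1a1 and Scgb3a2 had ratios of 0.361 and 0.389, and the smooth muscle genes Tagln and Acta2 ratios of 0.409 and 0.418. None of the 13 AT2 or 12 AT1 markers passed 2-fold, and their median log2 ratios were -0.78 and -0.16. The macrophages as a whole held alveolar epithelial transcripts at levels within 2-fold of those in a library sorted for epithelium.

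The alveolar RNA was unevenly spread over the macrophages. The 13 AT2 markers (surfactant protein C gene Sftpc and others) took a median of 0.857% of a macrophage's UMIs, with quartiles of 0.709 and 5.36% and a maximum of 22.1%, against a median of 2.17% in the remaining cells. Pooled over cells, the share was 4.49% in macrophages and 8.44% in the remaining cells. The 12 AT1 markers (the receptor gene Ager and others) took pooled shares of 0.894% in macrophages and 1.02% in the remaining cells. The plot of both shares per cell shows the macrophages in separate clouds rather than along a line. Limits of 0.35% for the AT1 share and 1.5% for the AT2 share, set after the shares had been seen, part these clouds into 463 alveolar-poor macrophages, 709 with AT1 RNA, 52 with AT2 RNA and 641 with both. Within 0.8 to 1.25 times a limit lay 81 macrophages for AT1 and 34 for AT2.

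**Figure D2:**
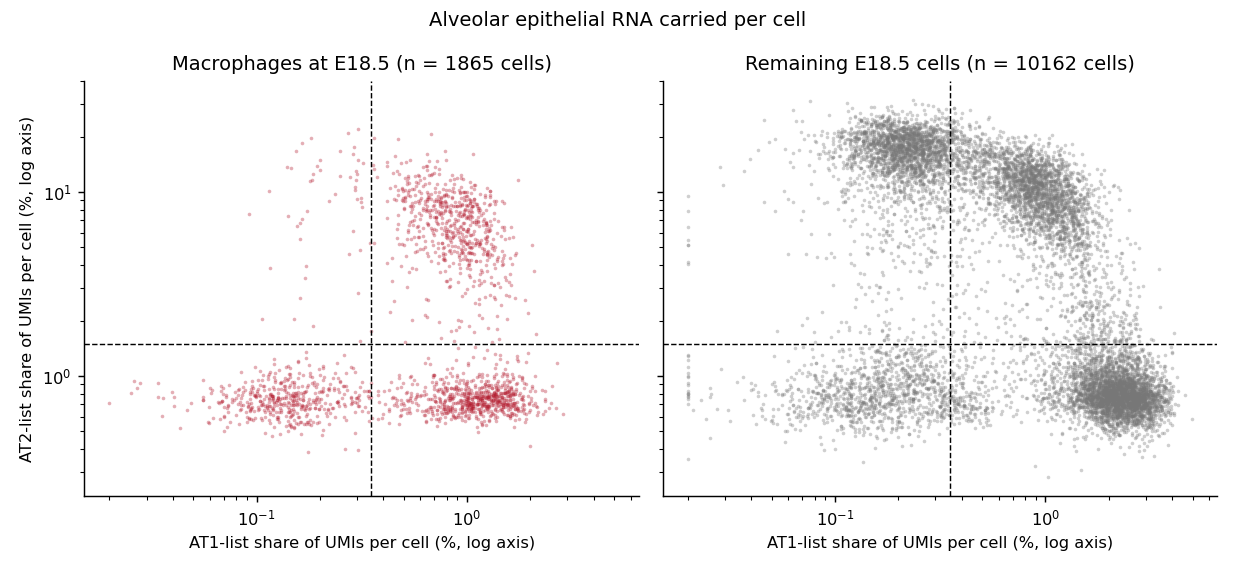
Share of each cell's UMIs in the 12 AT1 markers (x axis, %, log) and in the 13 AT2 markers (y axis, %, log), for 1865 E18.5 macrophages (left) and 10162 remaining E18.5 cells (right); dashed lines mark 0.35% and 1.5%, and cells under 0.02% or 0.2% are drawn at those values. Macrophages form a cloud of 463 at the lower left, 709 at the lower right and 641 at the upper right, with 52 at the upper left.

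In alveolar-poor macrophages the AT2 share sat at a median of 0.738% and the AT1 share at 0.142%. Other cells that should lack these genes had similar medians. Fibroblast-rule cells (at least 4 of 7 fibroblast markers and at most 1 of the 6 macrophage genes, 311 cells) had a median of 0.742%, endothelial-rule cells (defined alike with 8 endothelial markers, 253 cells) 0.858% and neutrophil-rule cells (S100a8 and S100a9 at 1% of UMIs or more, 89 cells) 0.961%. Their AT1 medians were 0.147, 0.199 and 0.179%. The limits fix the level in alveolar-poor macrophages, whereas the fibroblast-, endothelial- and neutrophil-rule cells were not limited by alveolar RNA. Pooled over cells, the AT2 share was 5.45% in endothelial-rule cells (upper quartile 2.04%), 2.17% in fibroblast-rule cells and 2.53% in neutrophil-rule cells, against 4.49% in macrophages. Uneven alveolar RNA was thus not particular to macrophages. Above at least 1 of the limits lay 1402 of 1865 macrophages. Macrophages with AT1 RNA alone kept an AT2 share of 0.743% and had an AT1 share of 1.14%. Macrophages with both held 6.65% AT2 and 0.885% AT1 marker RNA.

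The classes also differed in depth. Median totals were 6579 UMIs in alveolar-poor macrophages, 13111 with AT1 RNA, 16725.5 with AT2 RNA and 27675 with both, against 8166.5 in the remaining cells. The 6 rule markers chose the cells in every class, so their levels are a description. Summed over these markers, the mean was 57.4 UMIs per alveolar-poor macrophage, 54.2 with AT1 RNA, 46.6 with AT2 RNA and 46.3 with both, against 1.25 in the remaining cells. As a rate, the same markers took 6869 CPM in alveolar-poor macrophages, 3683 with AT1 RNA, 2384 with AT2 RNA and 1577 with both, against 124 CPM in the remaining cells. Of genes outside the rule, Spi1 had means of 2.98 UMIs per alveolar-poor macrophage, 2.66 with AT1 RNA, 2.10 with AT2 RNA and 2.14 with both, against 0.0717 in the remaining cells. Csf1r had means of 1.01 UMIs per alveolar-poor macrophage, 0.638 with AT1 RNA, 0.712 with AT2 RNA and 0.504 with both, against 0.0364 in the remaining cells. Both were lower per cell in the class with both RNAs than in alveolar-poor macrophages. Sftpc had 48.2 UMIs per alveolar-poor macrophage, 87.6 with AT1 RNA, 1737 with AT2 RNA and 1709 with both, against 715 in the remaining cells.

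**Figure D3:**
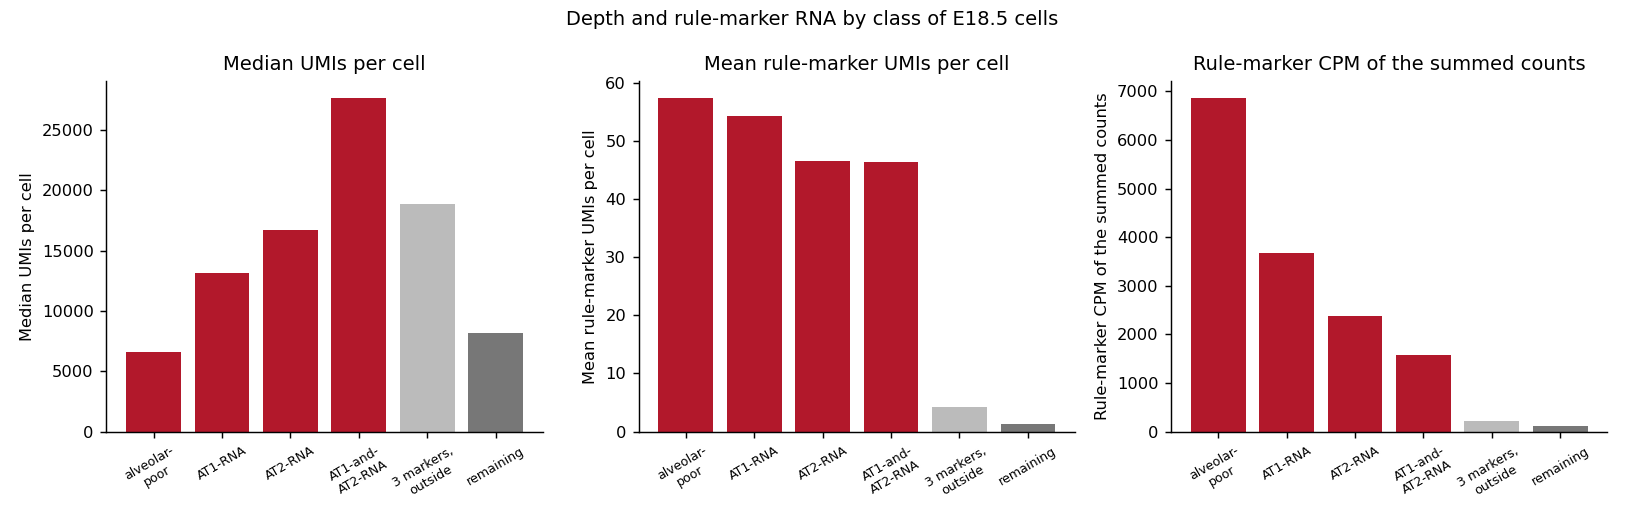
Median UMIs per cell (left), mean UMIs of the 6 rule markers per cell (middle) and rule-marker CPM of the summed counts (right), for the 4 classes of E18.5 macrophages (red), for cells with 3 rule markers that lie just outside the rule (light grey) and for the remaining E18.5 cells (dark grey). The rule markers chose the cells, so the middle and right panels are a description; over the 4 classes the mean lies between 46.3 and 57.4 UMIs per cell and the CPM between 1577 and 6869.

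Transcripts from both sexes gave a second reading of the same classes. Xist is made by female cells, and Ddx3y, Eif2s3y, Kdm5d and Uty lie on the Y chromosome. Among macrophages 449 held Xist without a Y transcript and 556 a Y transcript without Xist, so the library held cells of both sexes. Both kinds stood in 1 barcode for 11.7% of alveolar-poor macrophages, 32.6% of those with AT1 RNA, 34.6% of those with AT2 RNA and 51.3% of those with both, against 10.7% of the remaining cells. With every cell thinned to 2000 UMIs the shares were 1.53% of alveolar-poor macrophages, 2.40% with AT1 RNA, 1.92% with AT2 RNA and 1.41% with both, against 1.01% of the remaining cells. The thinned shares rest on 7, 17, 1 and 9 macrophages in these classes, too few to order them, and the unthinned shares were not matched for depth. No doublet caller was run. Whether 2 cells shared a droplet, or macrophages had taken up epithelial RNA, was not tested.

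The sorting gene had the most UMIs per cell in the class with both RNAs, which was also the deepest. Epcam had means of 0.512 UMIs per alveolar-poor macrophage, 3.33 with AT1 RNA, 4.96 with AT2 RNA and 8.71 with both, against 3.61 in the remaining cells. These means are not corrected for depth, at medians of 27675 UMIs with both and 8166.5 in the remaining cells. The 9 pan-epithelial markers include Epcam. Their share of UMIs was 0.0829% in alveolar-poor macrophages, 0.377% with AT1 RNA, 0.207% with AT2 RNA and 0.363% with both. In the remaining cells it was 0.445%. Cdh16, the traced gene, had no UMI in the 463 alveolar-poor macrophages and was seen in 3.75% of all macrophages, against 2.37% of the remaining cells. With every cell thinned to 2000 UMIs the order was the opposite, at 0.161% of macrophages and 0.435% of the remaining cells, so no direction is read from Cdh16.

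Limiting the comparison to alveolar-poor macrophages widened it. Of 9512 genes measured, 1784 were at least 2-fold higher (18.8%) and 1712 at least 2-fold lower (18%) than in the remaining cells. This setting was added after the data had been seen. Cybb reached 982 CPM, Rgs1, a regulator of G protein signalling in leukocytes, 538 CPM and Spp1 808 CPM in alveolar-poor macrophages, against 11.5, 4.72 and 7.23 CPM in the remaining cells. All 13 AT2 and all 12 AT1 markers were then lower, but limits on these same markers chose the alveolar-poor macrophages, so this is no separate result. The secretoglobin Scgb3a2 had the opposite direction there, at 1041 CPM against 740.3 CPM in the remaining cells. It stood at 19039.9 CPM in the 7 cells of sub-cluster 8 described next and at 54.8 CPM in the other alveolar-poor macrophages.

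Sub-clusters of the 463 alveolar-poor macrophages (Leiden clustering at resolution 0.6 on 2000 variable genes) numbered 9, and each is described by the listed cell type markers. Defining genes of a cluster are a description and were not tested. The share of the AT2 markers was close to the same in every sub-cluster, with medians of 0.665 to 0.873%. The plot of markers by sub-cluster shows C1q genes in sub-cluster 3, MHC class II genes in 4 and monocyte genes in 6, while genes of alveolar macrophages are spread over several. That list took 2.45% of the UMIs of sub-cluster 2, 0.697% of sub-cluster 5, 0.525% of sub-cluster 1 and 0.411% of sub-cluster 7.

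**Figure D4:**
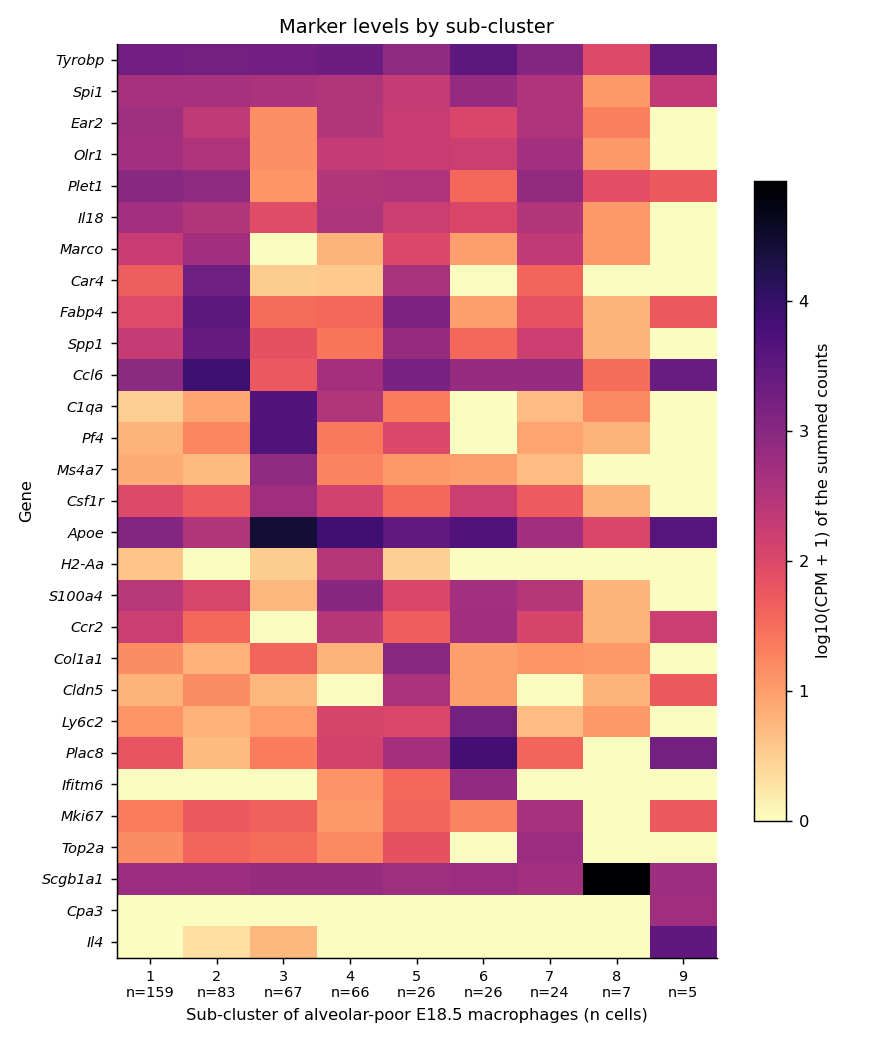
Level of 29 marker genes, as log10(CPM + 1) of the summed counts, in the 9 sub-clusters of alveolar-poor E18.5 macrophages, with the number of cells under each. C1qa and Pf4 are darkest in sub-cluster 3, Car4 and Fabp4 in sub-cluster 2, Ly6c2 and Plac8 in sub-cluster 6, Top2a in sub-cluster 7 and Scgb1a1 in sub-cluster 8.

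Sub-clusters 1 and 2 both held alveolar-macrophage genes. In sub-cluster 2, which was alveolar macrophage-like, 6 of 19 listed markers were raised, that is, detected in at least 25% of its cells and at least 3-fold higher than in the other sub-clusters. In sub-cluster 1, which stays unnamed, 1 was. Sub-cluster 1 held 159 cells (34.3%, interval 30.0 to 38.9%), with Ear2 at 561 CPM, Olr1 at 493 CPM, Pparg at 167 CPM and Plet1, a surface protein, at 1001 CPM. Its leading genes Igkc, Gzma and Ccl5 are lymphocyte genes with few UMIs, 74, 90 and 53 in the 159 cells. Sub-cluster 2 held 83 cells (17.9%). Some of its alveolar-macrophage genes were higher than in sub-cluster 1: Car4 at 1992 CPM, Fabp4, a lipid carrier, at 3466 CPM, Spp1 at 2602 CPM and Atp6v0d2, a proton pump subunit, at 494 CPM. In sub-cluster 1 these 4 genes stood at 48.2, 87.1, 189 and 21.5 CPM. Ear2 (219 CPM), Olr1 (334 CPM), Pparg (103 CPM) and Plet1 (827 CPM) were lower in sub-cluster 2 than in sub-cluster 1. Ferritin heavy chain Fth1 took 51850.5 CPM in sub-cluster 2 and 24088 CPM in sub-cluster 1. The 4 adult globin genes also led there, Hbb-bs with 1482 CPM, against 228 CPM in sub-cluster 1.

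Sub-cluster 3 was C1q-type tissue macrophage-like, with 11 of 16 listed markers raised and 67 cells (14.5%, interval 11.4 to 18.0%). C1qa stood at 4510.1 CPM and Pf4, a chemokine of platelets and of tissue macrophages, at 4751 CPM, while Marco had no UMI. Apoe, which carries lipid out of cells, reached 27750.2 CPM, and Csf1r 519.5 CPM. Lyve1, Folr2, Cd163 and Timd4, genes of resident macrophages along vessels, remained at 77.1, 36.3, 61.3 and 4.54 CPM. Over all macrophages, 165 cells held at least 2 of the 3 C1q genes (8.85%, interval 7.60 to 10.2%), against 68 of the 10162 remaining cells (0.669%). Of these 165 cells 50.3% were alveolar-poor, a class that made up 24.8% of all macrophages.

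Sub-cluster 6 was monocyte-like, with 8 of 14 listed markers raised, and held 26 cells (5.62%). Of 13 neutrophil markers 3 were raised in it as well, S100a8 at 2295 CPM, Mmp8 at 280.3 CPM and Csf3r at 87.6 CPM. Ly6c2, a surface protein of inflammatory monocytes, stood at 1734 CPM and Plac8 at 7016 CPM. The interferon-induced Ifitm3 reached 5553 CPM there, against 546 CPM over all alveolar-poor macrophages. Sub-cluster 4 (66 cells) was led by 4 MHC class II genes and S100a4, and it stays unnamed, since fewer than 3 markers of any listed cell type were raised in it. H2-Aa stood at 289 CPM and H2-Eb1 at 372 CPM, against 3.08 and 3.08 CPM in sub-cluster 1, and Ccr2 at 302 CPM. Of the 463 alveolar-poor macrophages 6 held at least 2 of H2-Aa, H2-Ab1 and H2-Eb1, so few cells carried these transcripts.

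The other sub-clusters mixed macrophage genes with those of another cell or were small. Sub-cluster 5 (26 cells) carried collagen and endothelial genes, with Col1a1 at 978 CPM and Cldn5, an endothelial tight junction gene, at 377 CPM, and 14 of its cells held Xist and a Y transcript (53.8%). That share was not thinned, and the median depth was 13964.5 UMIs in sub-cluster 5, against 5780 in sub-cluster 1. Sub-cluster 8 (7 cells) was led by the club cell genes Scgb3a2 and Scgb1a1, with Scgb1a1 at 84622 CPM, and had rule markers at 428 CPM, against 8325 CPM in sub-cluster 1. Sub-cluster 9 (5 cells) had basophil and mast cell markers, Mcpt8 at 632 CPM and Cpa3 at 527 CPM, with Il4 at 3054 CPM and no UMI of Csf1r. At resolution 1 the 463 cells fell into 11 clusters, and sub-clusters 2, 3, 6, 7, 8 and 9 held the same cells.

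Dividing cells formed sub-cluster 7 (24 cells), with Top2a, which untangles DNA in mitosis, at 599.9 CPM and Mki67 at 441 CPM. None of the 19 alveolar-macrophage markers was raised in it. Ear2 stood at 336 CPM and Plet1 at 743 CPM, but Chil3 at 11.3, Car4 at 37.7 and Atp6v0d2 at 11.3 CPM, and C1qa at 3.77 CPM. Counted over all macrophages thinned to 2000 UMIs each, 43 of 1858 held at least 4 of the 18 dividing markers, a share of 2.31% (1.68 to 3.10%), against 17 of 9421 remaining cells (0.180%, 0.105 to 0.289%). Thinning left out 7 macrophages and 741 remaining cells with fewer UMIs. Without thinning the shares were 11.9% of macrophages and 1.95% of the remaining cells. By class, the thinned share was 5.66% (26 of 459) in alveolar-poor macrophages, 1.70% with AT1 RNA, 3.85% with AT2 RNA and 0.469% (3 of 640) with both. Alveolar RNA takes part of the 2000 UMIs in the last 3 classes, and its part in this order was not tested.

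The comparison with P10 asked how macrophages before birth differed from those chosen by the same rule after birth. Of 9453 genes measured, 900 were at least 2-fold higher at E18.5 (9.52%) and 1371 at least 2-fold lower (14.5%). Where a gene reached 10 CPM at only 1 age, that minimum fixes its direction, also in the counts over gene lists below. Each age was 1 library, so age and library cannot be told apart, and no p-value is given. The alveolar RNA differed in kind: AT2 markers took 4.49% of macrophage UMIs at E18.5 and 10.7% at P10, AT1 markers 0.894% at E18.5 and 0.113% at P10. All 11 measured AT1 markers were higher at E18.5 and 10 of 13 AT2 markers lower, and for each gene below the levels in the remaining cells of both ages stand beside those in macrophages where they bear on it. The 6 rule markers, which chose the cells at both ages, took 2844 CPM at E18.5, against 2196 CPM at P10, and Fcer1g alone among them was at least 2-fold higher at E18.5.

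MHC class II genes, which present antigen to T cells, were lower at E18.5 in all 7 measured cases, with a median log2 ratio of -5.18 against -0.10 over all genes measured. H2-Ab1 had 11.2 CPM in E18.5 macrophages and 599.8 CPM in P10 macrophages, and Cd74, the invariant chain, 70.8 CPM at E18.5, against 2608 CPM at P10. The remaining cells also differed, with H2-Ab1 at 4.49 CPM at E18.5, against 129 CPM at P10. Ciita, the master regulator of these genes, had 0.937 CPM at E18.5, against 24.0 CPM at P10. H2-DMb1 (7.94 CPM at E18.5, against 104 CPM at P10) and Ciita were measured only through P10. The 6 measured dendritic cell markers were lower at E18.5 too. None of them reached 10 CPM at E18.5, so all were measured only through P10, which fixes their direction. Flt3 stood at 0.205 CPM at E18.5, against 14.2 CPM at P10, and Cd209a at 0.176 CPM at E18.5, against 13.7 CPM at P10. The P10 cells chosen by the rule thus included cells with dendritic transcripts. Their part in the MHC class II difference was not tested.

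Several inflammatory signals were higher before birth. Of 22 measured chemokines and cytokines 10 were higher at E18.5, 3 lower and 9 within 2-fold, with a median log2 ratio of 0.91. Spp1 had 216 CPM at E18.5, against 7.41 CPM at P10, a 29.2-fold ratio (24.3 to 35.4), and the remaining cells had 7.23 CPM at E18.5, against 1.47 CPM at P10. Osm, oncostatin M, was 8.69-fold higher (7.69 to 9.85), at 151 CPM at E18.5, against 17.4 CPM at P10, and Il1rn 5.51-fold (4.79 to 6.37). Cxcl2 stood at 3359.6 CPM at E18.5, against 863 CPM at P10. Tnf was nearly equal, at 139 CPM at E18.5, against 134 CPM at P10. Outside this list, Fn1, fibronectin, had 301 CPM at E18.5, against 45.1 CPM at P10, and Tlr2 177 CPM at E18.5, against 35.4 CPM at P10. The lower members were Ccl17, a chemokine for T helper cells, at 6.09 CPM at E18.5, against 123 CPM at P10, the monocyte attractant Ccl7 at 33.2 CPM at E18.5, against 88.5 CPM at P10 and Cxcl16 at 57.3 CPM at E18.5, against 126 CPM at P10.

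**Figure D5:**
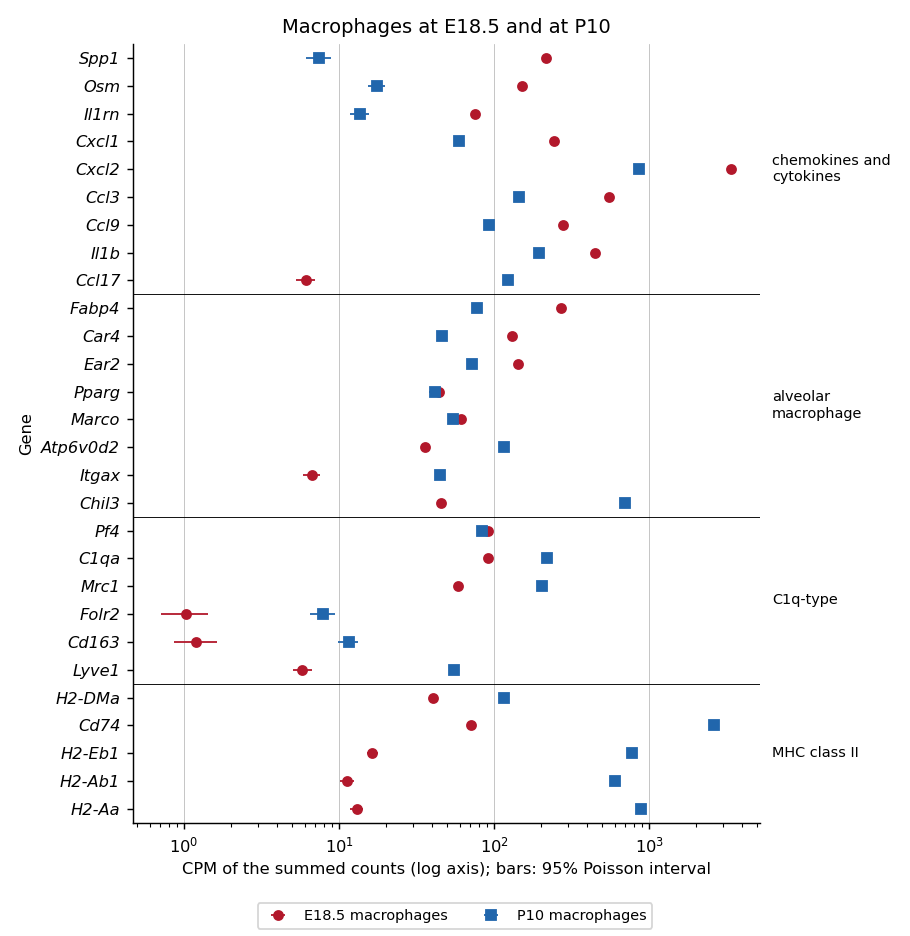
Level in CPM (log axis) in macrophages at E18.5 (red circles) and at P10 (blue squares) for genes of 4 lists; bars are 95% Poisson intervals of the summed counts and cover counting error only. Spp1 stands at 216 CPM at E18.5, against 7.41 CPM at P10, and H2-Ab1 at 11.2 CPM at E18.5, against 599.8 CPM at P10.

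Alveolar-macrophage genes went both ways. Of 15 measured, 4 were higher at E18.5 (Fabp4, Car4, Il18 and Il1rn), 3 lower (Chil3, Itgax and Atp6v0d2) and 8 within 2-fold. Chil3, a chitinase-like secreted protein, had 45.3 CPM at E18.5, against 700.2 CPM at P10, and the remaining cells had 4.18 CPM at E18.5, against 19.5 CPM at P10. Itgax, the integrin CD11c, stood at 6.65 CPM at E18.5, against 44.8 CPM at P10. Pparg and Marco differed little, with ratios of 1.07 (0.973 to 1.17) and 1.13 (1.04 to 1.23). Gpnmb, a glycoprotein of lipid-laden macrophages, was lower at E18.5, at 7.67 CPM at E18.5, against 108 CPM at P10. C1q-type genes were lower at E18.5 in 9 of 14 cases and higher in none. Mrc1, the mannose receptor, had 58.6 CPM at E18.5, against 204 CPM at P10, Lyve1 5.80 CPM at E18.5, against 54.7 CPM at P10 and Folr2 1.03 CPM at E18.5, against 7.86 CPM at P10.

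Genes of the hypoxia and of the fetal growth lists were mostly higher at E18.5. Of 14 hypoxia and glycolysis genes 11 were higher in E18.5 macrophages: Pgk1 had 193 CPM at E18.5, against 45.4 CPM at P10, and the remaining cells had 148 CPM at E18.5, against 32.6 CPM at P10. Vegfa, the vascular growth factor, had 624 CPM at E18.5, against 45.4 CPM at P10, but 141 CPM in alveolar-poor E18.5 macrophages. Of 12 imprinted and fetal growth genes 11 were higher. Dlk1, which led the ranking, stood at 941 CPM in E18.5 macrophages and 2.81 CPM in P10 macrophages, but at 1777 CPM in the remaining E18.5 cells and 152 CPM in alveolar-poor macrophages. Of the 15 genes with the largest ratio, Spp1 alone was at least 2-fold higher in E18.5 macrophages than in the remaining E18.5 cells. Scgb3a1, an airway secretoglobin, was the lowest, at 1.82 CPM at E18.5, against 572 CPM at P10. The remaining cells also differed, with Scgb3a1 at 2.39 CPM at E18.5, against 129 CPM at P10.

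Among macrophages below their library's median of alveolar RNA, the counts were 786 genes higher and 1513 lower at E18.5. Spp1 then had a ratio of 31.4, H2-Ab1 one of 0.0373 and Dlk1 one of 226. This cut did not match alveolar RNA between the ages. The pooled AT2 share was 0.737% at E18.5, against 2.87% at P10, and the AT1 share 0.647% at E18.5, against 0.0653% at P10. Gene length moved with age too: over the 9453 genes, the fifth with the shortest genes had a median log2 ratio of 0.32 in macrophages and 0.40 in the remaining cells. The fifth with the longest genes had -0.58 in macrophages and -0.53 in the remaining cells, and the part of gene length in single genes was not tested. Dividing macrophages made up 2.31% at E18.5 and 1.89% (1.04 to 3.16%) at P10 after thinning, intervals that overlap.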

How the data were processed

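Lung cells were sorted and sequenced as 10x 3′ libraries, 1 at E18.5 and 1 at P10. Per the file headers, Cell Ranger 7.0.1 produced the matrices, and the values deposited in them are raw UMI counts of every gene in every barcode. The submitters' processing notes also name mm10 and Seurat 4.0.0. The treatment of intronic reads is not stated by labels or headers. The 2 matrices held 137837590 and 171205348 UMIs.

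Barcodes with at least 500 genes, 1000 UMIs and at most 20% mitochondrial UMIs were kept. Counts were summed over macrophages and over the remaining cells and scaled to CPM (counts per 1000000 UMIs) with Python 3.11.15, numpy 2.4.6 and scipy 1.17.1. Genes with at least 10 CPM in either sum were measured. Ratios of at least 2 in either direction were counted, with conditional binomial 95% intervals and exact Poisson or Clopper-Pearson intervals for levels and shares, which cover counting error only. With 1 library per age no p-value was computed.

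The text names the 25 genes with the largest ratio at 50 CPM or more in macrophages and the 10 with the smallest at 50 CPM or more in the rest. For age it names from the 15 largest and 15 smallest ratios at a mean of 50 CPM or more. These ranks used 1 CPM added and left out unnamed models, globin and sex-linked genes, and genes of mitochondria and ribosomal proteins. Members of the gene lists were named besides. The members and lists were chosen with earlier results of these data known. Alveolar-poor macrophages were clustered with scanpy 1.11.5 and leidenalg 0.10.2 (20 components, 15 neighbours). No doublet caller was run and no doublets were removed. The summing and ratio steps were tested on simulated data. Alternatives changed the rule, the filters, the minimum, the scaling and the threshold.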

Additional observations from a re-analysis of the deposited data

How the results depend on the processing

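Each library stands alone, so no library could be left out. No paired analysis was possible because each age has 1 library and no replicate number is shared within a comparison. The share of E18.5 cells called macrophages was 19.8% with at least 3 markers, 13.9% with at least 5 and 16.6% with stricter cell filters. The AT2 share of macrophage UMIs was 5.51% with at least 3 markers, 4.02% with at least 5, 4.48% with a wider S100a8 and S100a9 limit, 3.77% without the 10% of macrophages with most UMIs, 0.737% below the median of alveolar RNA and 0.740% in alveolar-poor macrophages. The AT1 share was 0.898, 0.901, 0.647 and 0.155% with at least 3 markers, with at least 5, below the median and in alveolar-poor macrophages. Dividing macrophages made up 3.66% by at least 3 dividing markers, 4.16% at 4000 UMIs, 4.11% below the median and 5.66% in alveolar-poor macrophages. Genes higher than in the rest numbered 1290 below the median, 1784 in alveolar-poor macrophages and 245 at 50 CPM. Lower genes numbered 233 with at least 5 markers, 234 without the top 10%, 735 below the median, 1712 in alveolar-poor macrophages, 413 by mean CPM over cells (with 901 higher), 21 at 50 CPM and 53 at a ratio of 3. At E18.5 over P10, 524 genes were higher at 50 CPM and 351 at a ratio of 3, with 575 and 632 lower. Scgb3a2 reversed to a ratio of 1.41 in alveolar-poor macrophages. Sub-cluster 8 held 3827 of its UMIs there and the other alveolar-poor macrophages 201, and why those cells held it was not tested. A tally was made of the ratios of the named genes and the sizes of sub-clusters 2 and 3 over their alternatives. Of these values 467 stayed within the counting interval or 1.5 times the count, 315 moved further and 1 reversed. The shares and gene counts above are not part of this tally. The alveolar-poor setting, clustering at resolution 1 and leaving out the 11 macrophages with shared barcodes were chosen after seeing the data. Alveolar-poor macrophages were not picked at P10, where the AT2 share of every macrophage exceeded the limit. Depth limits genes near 10 CPM, which the text does not rank.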

Other observations

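S100a8 exceeded S100a9 in the macrophages, a pair that the rule limits only as a sum. Alveolar-poor macrophages held S100a8 at 314 CPM and S100a9 at 14.2 CPM, and macrophages with AT1 RNA held S100a8 at 270 CPM and S100a9 at 26.9 CPM. Neutrophil-rule cells of the same library held 28597 CPM of S100a8 and 34193 CPM of S100a9. AT1-rule cells (at least 0.7% of UMIs in AT1 markers, under 1.5% in AT2 markers and at most 1 of the 6 macrophage genes) held 13.1 and 13.4 CPM. Within alveolar-poor macrophages the monocyte-like sub-cluster 6 had 2295 CPM of S100a8 and 26.3 CPM of S100a9, and sub-cluster 1 had 471 and 15.4 CPM. S100a8 and S100a9 encode the 2 chains of calprotectin.

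The 5 cells of sub-cluster 9 held Il4 at 3054 CPM, Csf2 at 4265 CPM and Hdc, the enzyme that makes histamine, at 1843 CPM. Over all macrophages, 6 cells held at least 3 of the basophil and mast cell genes Cpa3, Mcpt8, Ms4a2, Gata2 and Hdc, a share of 0.322% (exact binomial interval 0.118 to 0.699%), against 0 of the 10162 remaining cells. No macrophage held 2 or more of the T cell genes Cd3e, Cd3d and Trac, against 2 of the remaining cells.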
